A study of Mus musculus with 14 samples.

Results

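The genes of insulin receptor signalling examined here were Insr, Irs1, Irs2, Pik3r1, Akt1, Akt2, Foxo1, Ptpn1, Grb14 and Errfi1, 10 of the 19938 genes with a probe set of their own on the array. They were chosen by name, for their place in the pathway, and not by a threshold on measured values. Earlier results of these data were known when they were chosen. A probe set, the group of array probes whose signals are summarized into 1 value, was taken where its annotation named only that gene, and where a gene had several the brightest on average was used. The members had 13 such probe sets, of which 10 were used and the remaining 3 (Insr, Irs1 and Akt2) are given beside them. Liver RNA came from 14 male C57BL/6 mice aged 24 weeks, all fed a high-fat diet (60% of kcal as fat) for the last 20 weeks. Of these, 7 mice had received human bone marrow-derived mesenchymal stem cells (MSCs, 750000 cells in buffer through the tail vein; HFM) and 7 had received the same volume of saline buffer (HFS), with liver taken 24 h later. All MSCs came from a single human donor, and no lean or chow-fed mice were among the samples, so every value below describes a liver on the high-fat diet. Each mouse had its own GeneChip Mouse Gene 1.0 ST array, and values are log2 expression, on which a difference of 1 is a doubling. Probes differ in brightness, so levels were compared between mice for 1 probe set at a time and never between genes.

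In hepatocytes insulin binds a receptor kinase at the cell surface, which phosphorylates adaptor proteins and so recruits a lipid kinase. The lipid it makes activates the AKT kinases, which keep the transcription factor FOXO1 out of the nucleus and so turn down genes of glucose production, while other branches turn up genes of fatty acid synthesis. Inhibitors act close to the receptor, either by removing its phosphates or by blocking its kinase, and FOXO1 is in turn known to raise transcription of Irs2 and the receptor gene when insulin is low.

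Because the members lie in a loop in which transcription answers to insulin, the windows around their transcription starts were read first, from 250 bases before the start to 50 after it (RefSeq, GRCm38.p6). Of the 10 members 9 were in the table used, with 15 windows in all, and Insr was not among them. The searched motifs were GTAAACA, an element that FOXO proteins bind, CAAAACA, the core of the insulin response element of Igfbp1, and CACGTG, an E-box bound by USF and clock factors, each on both strands. Of all 32851 windows in the table, 3.65% held the first, 6.28% the second and 7.15% the third. In the 15 windows of the members, the first was found in 1, the second in 2 and the third in 2. The windows below are shown because they are the only ones of members that held a match, with that of Igfbp1, a classic FOXO1 target, for comparison, and capitals mark the matches.

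Irs1, chr1:82291390-82291689, minus strand: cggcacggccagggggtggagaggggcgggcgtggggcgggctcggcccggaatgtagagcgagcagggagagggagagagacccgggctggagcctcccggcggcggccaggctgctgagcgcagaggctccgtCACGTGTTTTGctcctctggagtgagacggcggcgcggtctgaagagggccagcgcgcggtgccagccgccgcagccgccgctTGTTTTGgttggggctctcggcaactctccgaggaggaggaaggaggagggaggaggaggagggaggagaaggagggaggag

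Irs2, chr8:11008880-11009179, minus strand: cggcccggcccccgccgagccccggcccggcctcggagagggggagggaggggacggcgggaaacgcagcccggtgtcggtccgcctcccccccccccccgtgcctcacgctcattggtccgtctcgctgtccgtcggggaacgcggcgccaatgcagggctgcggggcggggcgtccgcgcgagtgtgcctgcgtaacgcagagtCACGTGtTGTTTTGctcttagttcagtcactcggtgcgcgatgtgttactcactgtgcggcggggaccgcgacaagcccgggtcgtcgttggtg

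Akt1, chr12:112674835-112675134, minus strand: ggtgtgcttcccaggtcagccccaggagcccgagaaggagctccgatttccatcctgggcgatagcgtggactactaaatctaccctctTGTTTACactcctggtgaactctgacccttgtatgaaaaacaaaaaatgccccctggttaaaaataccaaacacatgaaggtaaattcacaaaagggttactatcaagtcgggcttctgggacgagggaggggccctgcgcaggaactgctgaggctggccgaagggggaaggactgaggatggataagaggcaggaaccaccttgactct

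Igfbp1, chr11:7197537-7197836, plus strand: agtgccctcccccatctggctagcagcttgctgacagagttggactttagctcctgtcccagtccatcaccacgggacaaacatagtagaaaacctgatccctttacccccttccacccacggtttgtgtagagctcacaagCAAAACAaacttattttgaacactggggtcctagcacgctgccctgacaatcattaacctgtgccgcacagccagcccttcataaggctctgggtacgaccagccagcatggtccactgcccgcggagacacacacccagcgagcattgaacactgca

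Irs1 and Irs2, the insulin receptor substrate genes among the members, each held an E-box next to an insulin response element core. In Irs1 the E-box began 115 bases before the start and the core, on the opposite strand, 111 bases before it, so that the matches overlap, with another core 32 bases before the start. In Irs2 the E-box began 44 bases and the core 37 bases before the start. An E-box and a core that begin within 20 bases of each other were found in 19 of the 32851 windows (0.0578%), which belong to 16 genes. The pair and its limit of 20 bases were not planned beforehand, so this share is a description, without a test. The Akt1 window held a FOXO element 161 bases before the start, and the Igfbp1 window a core at 108 bases. These are matches of letters, and binding was not measured.

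Before the members are described, the arrays and tissue are. The hepatocyte markers were among the brightest probe sets of every array (10 of 11 measured, means between the 96.3 and 99.98 percentile of all probe sets), and their list means lay between 11.36 and 11.64 in HFM livers and between 11.44 and 11.56 in HFS livers. A single array stood slightly apart from the others. HFM3 had a median correlation of 0.986 with the other arrays, against 0.989 to 0.993 for the rest. It also held the highest of the 14 values for 5 members, Insr, Pik3r1, Akt2, Ptpn1 and Grb14. How often HFM3 was the highest mouse over all probe sets was not computed, so this is not shown to be particular to the members. Results that rest on HFM3 are given with and without it. Of 14 Kupffer cell and macrophage markers, 14 had a higher mean in HFM livers, 5 of them at an unadjusted limma p under 0.05. Of all probe sets, 51.4% had a higher mean and 3.57% were higher at that threshold. List means of the markers were 6.52 to 7.53 in HFM livers and 6.26 to 7.30 in HFS livers. Their part in the results below was not tested, and in whole liver more cells of a type and more RNA per cell cannot be told apart.

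Transcripts of the 10 members differed little between HFM and HFS livers. Of the 10, 6 had a higher mean in HFM livers and 4 a lower one, where 51.4% of all 23410 probe sets had a higher mean. The median difference of the members was 0.05 on the log2 scale. It was 0.00 over all probe sets and 0.02 over the brighter ones, among which the members lie. Here Akt2, among the higher ones, stands for its brightest probe set, which is doubtful, as described below. No member reached significance after adjustment in limma, where adjusted p lay between 0.770 and 0.970. At an unadjusted p under 0.05, 1 member (Akt1) was higher and 1 (Irs1) lower, where the background over all probe sets was 3.57% higher (836 probe sets) and 2.90% lower (678 probe sets). Exact permutation over all 3432 ways to divide the 14 mice gave 1 member with p under 0.05, beside 1490 of all probe sets. An unadjusted p under 0.01 with 1.2-fold or more, the thresholds of the study's methods without the Bonferroni correction those also name, held 0 members and 0.696% of all probe sets (163). No probe set of the array had an adjusted p under 0.05 (0.0%), the smallest being 0.305.

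Each 95% interval gives a range for the array difference of 1 member at a time, not for the members jointly. For 10 of 10 members the 95% interval of the difference lay inside 1.5-fold in either direction, and for 4 inside 1.2-fold. These counts include the doubtful Akt2 probe set, and the shares of all probe sets inside these bounds were not computed. The median size of the difference, in either direction, was 0.09 for the members, beside 0.06 over all probe sets.

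**Figure D1:**
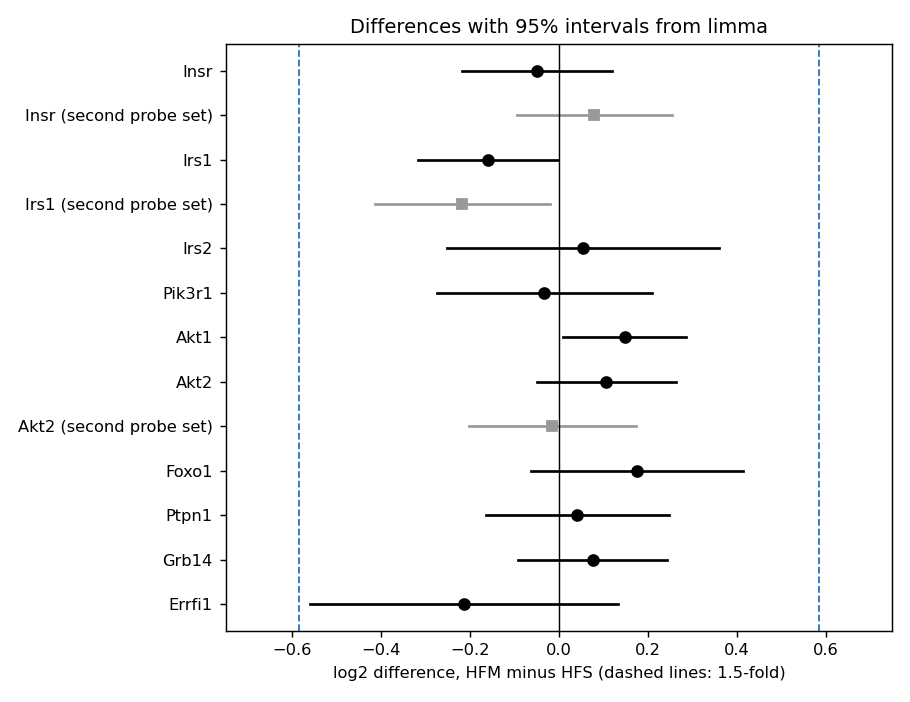
Log2 differences, HFM minus HFS, with 95% intervals from limma for the 13 probe sets, black circles for the 10 used and grey squares for the remaining 3. Of the used probe sets, the intervals of Irs1 and Akt1 leave out 0, and the 10 intervals lie inside the dashed lines at 1.5-fold.

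Insr encodes the insulin receptor itself. Its lowest, median and highest log2 values were 7.55, 7.91 and 8.13 in HFM livers, and 7.85, 7.95 and 8.07 in HFS livers. The HFM mice spread to both sides of the HFS mice, with 2 above and 3 below every HFS value, and their SD was 2.18 times that of HFS livers. The mean difference was -0.05 (95% interval -0.22 to 0.12, two-sided exact permutation p = 0.569). The remaining Insr probe set gave 6.88, 7.23 and 7.53 in HFM livers and 7.08, 7.10 and 7.33 in HFS livers, a difference of 0.08, so the sign depended on the probe set and neither difference was larger than the spread between mice. HFM7 was the lowest of all mice in both probe sets, and without it the difference of the brighter one was 0.01, whereas without HFM3 it was -0.09.

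Irs1 encodes an insulin receptor substrate, an adaptor that the receptor phosphorylates and that carries much of the signal in muscle and fat as well as liver. Individual values were 5.97, 6.25, 6.05, 6.14, 6.34, 6.17 and 6.07 in HFM mice 1 to 7, and 6.10, 6.34, 6.30, 6.29, 6.14, 6.49 and 6.46 in HFS mice 1 to 7. Thus 3 HFM mice lay below every HFS mouse and 2 HFS mice above every HFM mouse, and 6 of 7 HFM mice were below the HFS mean. The difference of -0.16 (SE 0.08, 0.895-fold) had an unadjusted limma p of 0.047 and an adjusted p of 0.772, and the exact permutation p was 0.053. The unadjusted call was lost without any of HFM1, HFM3, HFM4, HFM6, HFM7, HFS2, HFS3, HFS4, HFS6 or HFS7, with differences between -0.19 and -0.13 over all mice left out in turn.

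The remaining Irs1 probe set was dim, in the 19.9 percentile of all means, and gave 2.91, 3.03 and 3.33 as its lowest, median and highest values in HFM livers and 3.17, 3.23 and 3.76 in HFS livers, a difference of -0.22 (exact permutation p = 0.037, adjusted limma p = 0.768). Identifiers on this array run along the chromosomes, and of the 10 annotated genes nearest to it in that order most lie on the plus strand (9), whereas Irs1 lies on the minus strand, so whether it reads the Irs1 transcript was not tested.

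Irs2 encodes the substrate through which much of the hepatic response runs, and its transcription is known to fall with insulin and to rise with fasting. It was among the most variable genes of the array, its spread between mice of a group reaching the 97.0 percentile of all probe sets. Its values were 5.76, 5.50, 5.12, 5.54, 4.86, 5.53 and 5.84 in HFM mice 1 to 7 and 5.67, 5.84, 5.25, 5.55, 5.11, 5.24 and 5.11 in HFS mice 1 to 7. Both groups covered nearly the same range. The difference was 0.05 with a 95% interval of -0.25 to 0.36 (exact permutation p = 0.749), and it lay between -0.01 without HFM7 and 0.15 without HFM5. Whether mice were fasted before sampling, and at what hour livers were taken, is not given in the sources used here.

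Pik3r1 encodes the regulatory subunit of phosphoinositide 3-kinase, which stabilizes the catalytic subunit and at excess competes with it for substrate proteins. Its values were 7.43, 7.71, 7.91, 7.56, 7.69, 7.57 and 7.13 in HFM mice 1 to 7 and 7.71, 7.07, 7.78, 7.66, 7.73, 7.64 and 7.65 in HFS mice 1 to 7. A single mouse in each group, HFM7 and HFS2, lay well below the rest of its group, and the others overlapped. The difference was -0.03 (95% interval -0.27 to 0.21, exact permutation p = 0.793) and was 0.04 without HFM7, -0.12 without HFS2 and -0.09 without HFM3.

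**Figure D2:**
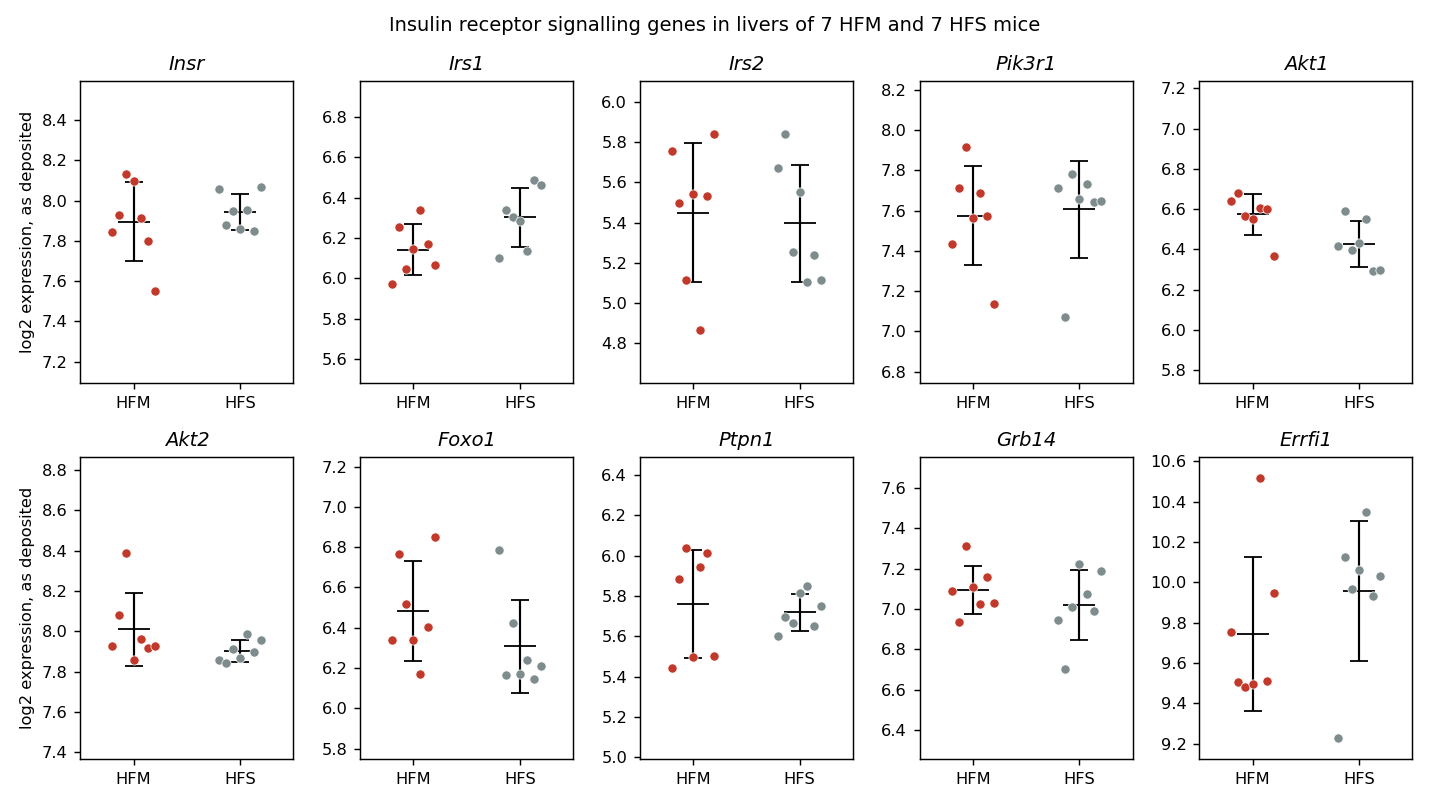
Log2 expression of the 10 members, 1 point per mouse, with HFM mice (red) left of HFS mice (grey) and black bars for the mean and SD of 7 mice. Every vertical axis spans 1.5 log2 units, and the widest spreads are those of Irs2 and Errfi1, whereas Ptpn1 shows HFM mice on both sides of a narrow HFS group.

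Akt1 and Akt2 encode kinases that carry the signal onward, of which AKT2 is the main form in liver metabolism. Akt1 values were 6.64, 6.68, 6.57, 6.55, 6.61, 6.60 and 6.37 in HFM mice 1 to 7, and 6.42, 6.59, 6.40, 6.43, 6.55, 6.29 and 6.30 in HFS mice 1 to 7. Of the HFM mice, 6 of 7 were above the HFS mean and 4 were above every HFS mouse, HFM7 being the exception to the first count. The difference of 0.15 (SE 0.07, 1.11-fold, 95% interval 0.01 to 0.29) had an unadjusted limma p of 0.037 and an adjusted p of 0.770, and the exact permutation p was 0.030. Akt1 was also among the steadier genes, its spread within groups lying at the 14.6 percentile. The unadjusted call was lost without any of HFM1, HFM2, HFM5, HFM6, HFS1, HFS3, HFS4, HFS6 or HFS7, the differences then lying between 0.13 and 0.15, and after quantile normalization (0.11).

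For Akt2 the brightest probe set is doubtful. Its 10 nearest annotated neighbours in identifier order, among them Egfr, the gene of the EGF receptor, all lie on chromosome 11, whereas Akt2 lies on chromosome 7, on which all 10 neighbours of the remaining Akt2 probe set lie. For the other 12 probe sets of members most neighbours were on the chromosome of the gene. In the gene lists below, 3 probe sets of genes not named here also had most neighbours on another chromosome. They were kept in the counts of genes below AKT, insulin-induced genes and clock genes. The brightest Akt2 probe set gave 7.86, 7.93 and 8.39 as its lowest, median and highest values in HFM livers and 7.84, 7.90 and 7.99 in HFS livers. The difference was 0.11 (exact permutation p = 0.135), and 0.04 without HFM3, the highest of all mice. The remaining probe set gave 7.17, 7.41 and 7.75 in HFM livers and 7.19, 7.43 and 7.68 in HFS livers, a difference of -0.02 (95% interval -0.20 to 0.17). The deviations of the mice in the 2 probe sets were not closely related (Pearson's r = 0.40, permutation p = 0.251; Spearman's rho = 0.17, permutation p = 0.586). Which transcript the brightest one reads was not tested.

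Foxo1 encodes the transcription factor that AKT restrains. Its values were 6.34, 6.76, 6.52, 6.34, 6.17, 6.40 and 6.85 in HFM mice 1 to 7, and 6.79, 6.17, 6.42, 6.17, 6.24, 6.14 and 6.21 in HFS mice 1 to 7. Of the HFM mice 6 of 7 were above the HFS mean, although HFS1 was higher than all but 1 HFM mouse. The difference was 0.18 (95% interval -0.06 to 0.41, limma p = 0.138, exact permutation p = 0.186), and without HFS1 it was 0.26 with an unadjusted limma p of 0.020, whereas without HFM7 it was 0.11.

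Among the inhibitors, Ptpn1 encodes the phosphatase PTP1B, which removes phosphate from the receptor. Its values were 5.44, 5.89, 6.04, 5.50, 5.94, 6.01 and 5.50 in HFM mice 1 to 7 and 5.60, 5.69, 5.67, 5.82, 5.85, 5.65 and 5.75 in HFS mice 1 to 7. The means differed by 0.04 (95% interval -0.16 to 0.25), and by -0.01 without HFM3 and 0.09 without HFM1. No HFM mouse lay within the HFS range, 4 being above every HFS mouse and 3 below every one. The SD of HFM livers was 2.93 times that of HFS livers, a ratio reached by 4.34% of all probe sets, and 98 probe sets of the array (0.419%) had all HFM mice outside the HFS range with some on each side. This pattern was noticed after the values were seen and is given as a description, without a test. A larger SD in HFM livers was common on the array (69.6% of probe sets, median ratio 1.27) and was found for 7 of 10 members, the largest ratio among them being the 3.40 of the doubtful Akt2 probe set, in which HFM3 stood apart.

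Grb14 encodes an adaptor that binds the activated receptor and blocks its kinase. The lowest, median and highest values were 6.94, 7.09 and 7.31 in HFM livers and 6.70, 7.01 and 7.22 in HFS livers. Of the HFM mice 6 of 7 were above the HFS mean, and the groups overlapped over most of their range. The difference was 0.08 (95% interval -0.09 to 0.24, exact permutation p = 0.376), 0.04 without HFM3 and 0.02 without HFS2.

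Errfi1 (also called Mig6) encodes an inhibitor of the EGF receptor that is itself induced by growth factor signals, and it was the most variable of the members, its spread lying at the 98.1 percentile of all probe sets. Its values were 9.75, 9.51, 9.48, 9.50, 10.52, 9.51 and 9.95 in HFM mice 1 to 7 and 9.23, 10.12, 9.97, 10.06, 10.35, 9.93 and 10.03 in HFS mice 1 to 7. The values of 5 HFM mice lay below those of 6 HFS mice, while HFM5 was the highest and HFS1 the lowest of all. The difference was -0.21 (95% interval -0.56 to 0.13, limma p = 0.213, exact permutation p = 0.289). It was -0.34 without HFM5 and -0.33 without HFS1, and in either case it passed an unadjusted p of 0.05 in limma, so that a single mouse decided the unadjusted call.

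Genes elsewhere in the pathway differed as little. For each list below the background is the same. Of all probe sets, 51.4% were above 0, and at an unadjusted limma p under 0.05 3.57% were higher and 2.90% lower. Of 20 measured genes between the receptor and the kinases (26 were listed), 12 were above 0, 0 were higher and 1 was lower at an unadjusted p under 0.05, with a median difference of 0.02 that was -0.00 after quantile normalization. The 1 gene was Irs3, a receptor substrate gene of rodents, at -0.18 (exact permutation p = 0.042, adjusted limma p = 0.770), and the next by limma p were Pik3r2, a further regulatory subunit of the lipid kinase, at 0.12 (limma p = 0.059, exact permutation p = 0.027), and Sos1, an exchange factor of the RAS branch, at -0.21. Irs3 values reached from 4.09 to 4.47 in HFM livers and from 4.27 to 4.80 in HFS livers, at the 43.9 percentile of all means. Its call was lost without any of HFM3, HFM4, HFM6, HFM7, HFS3, HFS4 or HFS7.

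Of 26 measured inhibitors and phosphatases (28 listed), 11 were above 0, 1 was higher and 1 lower, with a median of -0.01 that became 0.02 with array medians subtracted. Ptprf, which encodes a receptor-type phosphatase, was the higher one at 0.19 (exact permutation p = 0.034, adjusted limma p = 0.768), a call lost without HFM2 or HFM4 (0.16 in each case). Tns1, which encodes a focal adhesion protein with a domain related to phosphatases, was the lower one at -0.34 (exact permutation p = 0.057, adjusted limma p = 0.768). Tns1 was 0.06 when its probe sets were averaged, so its sign depended on the probe set, and its call was lost without HFM2, HFM3 or HFS6 (-0.28 to -0.29). Grb7, an adaptor related to Grb14, had a difference of 0.23 (95% interval -0.03 to 0.48), in which 6 of 7 HFM mice were above the HFS mean and HFM5, at 6.99, was below every HFS mouse. Without HFM5 the Grb7 difference was 0.36.

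Of 26 measured genes below AKT (27 listed), 13 were above 0, with 2 higher, 1 lower and a median of 0.00. Mlst8, a subunit shared by both mTOR complexes, had values of 4.68 to 4.96 in HFM livers and 4.33 to 4.81 in HFS livers, so that 7 of 7 HFM mice were above the HFS mean. Its difference of 0.24 (exact permutation p = 0.0058) had an adjusted limma p of 0.714. Foxo3 and Foxo6, relatives of Foxo1, differed in opposite directions, at 0.25 and -0.17, with adjusted limma p of 0.770 and 0.740. For Foxo6, 7 of 7 HFM mice were below the HFS mean. The Foxo3 call was lost in the exact permutation test (p = 0.080) and after quantile normalization. It was also lost without any of HFM1, HFM2, HFM3, HFM4, HFM6, HFS2, HFS3, HFS4, HFS5 or HFS7. The calls of Foxo6 and Mlst8 held without each mouse in turn, but these probe sets were not bright, at the 50.5 and 50.9 percentile of all means.

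**Figure D3:**
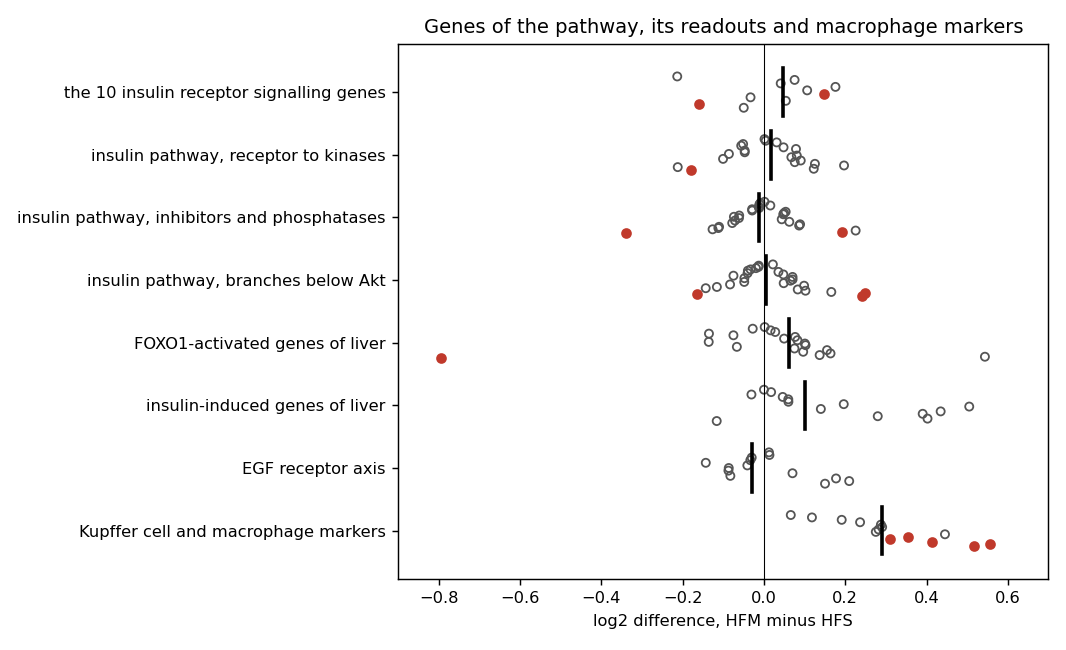
Log2 differences, HFM minus HFS, of the 10 members, of other pathway genes, of target genes of insulin and FOXO1, and of macrophage markers, with 1 circle per gene, filled red at an unadjusted limma p under 0.05, and a black bar at the median. Medians of the members and pathway lists lie near 0 and that of the macrophage markers at 0.29.

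Genes whose transcription reports insulin action were examined next. Of 20 genes listed as activated by FOXO1, 14 were above 0 and 1, G6pc, was lower at an unadjusted p under 0.05, with a median of 0.06. G6pc, the catalytic subunit of glucose-6-phosphatase, the last step of glucose production, had 8.07, 8.95 and 10.03 as its lowest, median and highest values in HFM livers and 9.02, 9.45 and 10.61 in HFS livers. In 6 of 7 HFM mice it was below the HFS mean, yet the groups overlapped, and the difference of -0.79 (SE 0.26, 95% interval -1.35 to -0.24, exact permutation p = 0.033) had an adjusted limma p of 0.714. Among the other FOXO1 readouts, Igfbp1, an IGF-binding protein that insulin represses within hours, differed by 0.08 (95% interval -0.28 to 0.44) and Pck1, which encodes the enzyme that commits oxaloacetate to glucose production, by -0.08 (95% interval -0.45 to 0.30). Bcl6, a transcriptional repressor, and Klf15, a factor of amino acid catabolism, were at 0.54 (0.35 without HFS4) and 0.14 with intervals that held 0. This list also held Angptl8, which insulin is known to raise in liver.

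Of 14 measured genes that insulin induces in liver (15 listed), 12 were above 0 and 0 passed an unadjusted p of 0.05, with a median of 0.10 that was -0.05 without HFS2. Srebf1, which encodes the main lipogenic transcription factor that insulin induces, had values of 7.51 to 8.74 in HFM livers and 6.68 to 8.50 in HFS livers and a difference of 0.40 (95% interval -0.08 to 0.89), which was 0.20 without HFS2. Gpam, the first enzyme of triglyceride synthesis, was at 0.28, at 0.17 without HFM3 or without HFS2, and at 0.43 without HFM5, where it passed an unadjusted p of 0.05 in limma. Fasn, the fatty acid synthase, was at 0.20 (95% interval -0.65 to 1.04), 0.04 without HFM3 and -0.15 without HFS2, and Pnpla3, a lipid droplet enzyme, at -0.12. The wide Fasn interval goes with HFS livers that reached from 6.03 to 9.18. Around Errfi1, 6 of 13 measured genes of the EGF receptor axis (14 listed) were above 0 and 0 passed an unadjusted p of 0.05, with a median of -0.03. Btc, a ligand, was at 0.15 and Erbb3, a co-receptor, at 0.21.

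Other lists are given because their cells or states are part of the same RNA. Acute phase proteins of hepatocytes were above 0 in 19 of 20 genes, 10 of them higher at an unadjusted limma p under 0.05, with a median of 0.29. Over all probe sets 51.4% were above 0, and 3.57% were higher and 2.90% lower at that threshold. The Kupffer cell and macrophage markers had a median of 0.29 too, with Mpeg1, a pore-forming protein of macrophages, at 0.52, Cd5l at 0.56 and C1qb at 0.41. Of the 16 measured circadian clock genes, 0 passed an unadjusted p of 0.05 and the median was 0.03. Neutrophil markers had 1 of 10 higher, T and NK cell markers 1 of 9, B cell markers 1 of 5 lower, sinusoidal endothelial markers 1 of 10 higher and stellate cell markers 2 of 10 higher. Among markers of tissues that can be carried along, adipocyte markers had 2 of 5 higher, although 2 of 5 were below 0 and the median was 0.01. Cholangiocyte (5 measured), erythroid (2), skeletal muscle (6) and pancreatic acinar (3) markers had 0 past that threshold in either direction. Whether any such tissue was carried along was not tested. The part of any of these in the members' values was not tested.

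With group means removed, the members were set against each other across the 14 mice, in 45 pairs. Pearson's r lay between -0.71 and 0.65, with a median of -0.00, 6 pairs had a permutation p under 0.05 and 0 did after adjustment. The most opposed pair was Irs2 and Pik3r1, with r = -0.71 (permutation p = 0.0031, adjusted 0.140) and rho = -0.73 (permutation p = 0.0061, adjusted 0.137). In 11 of 14 mice (6 of 7 HFM and 5 of 7 HFS) the genes lay on opposite sides of their group means, and HFM7 and HFS2 had the highest Irs2 and lowest Pik3r1 of their groups. The relation was -0.76 within HFM livers and -0.66 within HFS livers, -0.78 without the 2 mice farthest from the median of Irs2 (HFM5 and HFS5), -0.54 without the 2 farthest from that of Pik3r1 (HFS2 and HFM7), and -0.68 without HFM3.

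By rank a single pair passed adjustment, Pik3r1 and Akt2 (rho = 0.79, permutation p = 0.00096, adjusted 0.043; r = 0.57, adjusted 0.349). It was seen with the doubtful Akt2 probe set only. With the remaining Akt2 probe set rho was -0.01 (permutation p = 0.988) and r 0.19 (permutation p = 0.543). Pearson's r of the brighter one was 0.45 without HFM3, 0.82 without HFS2 and HFM7, the farthest from the median of Pik3r1, and 0.69 within HFM and 0.51 within HFS livers.

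**Figure D4:**
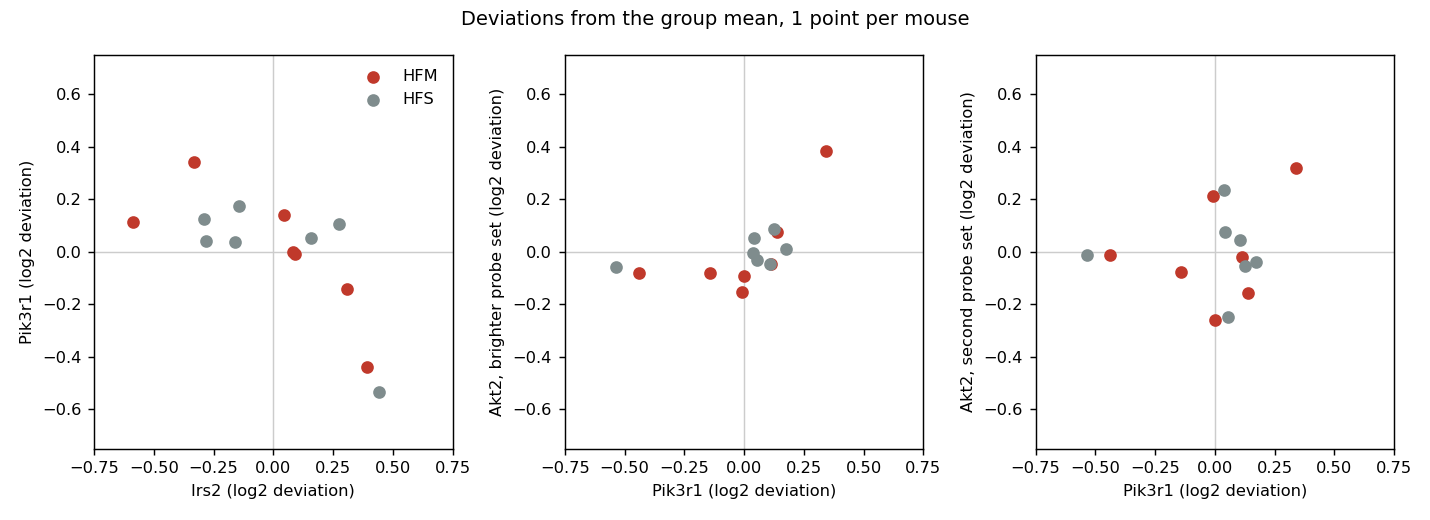
Deviations of each mouse from its group mean, in log2 units, with HFM mice in red and HFS mice in grey, for Irs2 against Pik3r1 (r = -0.71), Pik3r1 against the brighter Akt2 probe set (r = 0.57) and Pik3r1 against the remaining Akt2 probe set (r = 0.19). The single HFM point at the upper right of the middle panel is HFM3, and the points at the far left of it are HFS2 and HFM7.

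The members were also set against Igfbp1, G6pc, Pck1, Srebf1 and Fasn, in 50 pairs, of which 4 had a permutation p under 0.05 and 0 did after adjustment, by r or by rho. Irs2, itself a FOXO1 target, had r = -0.64 with G6pc (permutation p = 0.021, adjusted 0.458; rho = -0.51, permutation p = 0.081, adjusted 0.580) and 0.50 with Igfbp1 (permutation p = 0.081, adjusted 0.547; rho = 0.45, permutation p = 0.114). The relation of Irs2 with G6pc was -0.49 without HFM5 and HFS5. Grb14 and Fasn had r = 0.69 (permutation p = 0.015, adjusted 0.458; rho = 0.62, permutation p = 0.027), which was 0.34 without HFS2 and HFM3. Pik3r1 had r = 0.63 with Fasn and 0.58 with Srebf1 (adjusted 0.458 and 0.511), which were 0.25 and 0.31 without HFS2 and HFM7, the farthest from the median of Pik3r1. Without HFS2 and HFM5, the farthest from that of Fasn, the first was 0.54. By rank, rho was 0.51 with Fasn (permutation p = 0.065, adjusted 0.541) and 0.61 with Srebf1 (permutation p = 0.025, adjusted 0.341).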

How the data were processed

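Liver RNA was measured on GeneChip Mouse Gene 1.0 ST arrays, 1 mouse per array without pooling. The table deposited by the authors holds log2 expression, background corrected and normalized between arrays in Affymetrix Expression Console. The labels name RMA and the study's methods PLIER; versions and genome build are not stated there. All 14 value columns were used (0 left out).

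Probe sets with at least 1 symbol were tested (23410; 12146 without were left out, and 1621 carry several symbols and name no gene here). Differences are HFM minus HFS from limma 3.58.1 in R 4.3.3 (lmFit, eBayes, no covariate), with p adjusted by Benjamini and Hochberg over all 23410. Exact permutation tests are two-sided over 3432 divisions of the mice, with 0.000583 as the smallest p possible. Partek, which the authors used, was not run. Correlations used 100000 permutations within groups, adjusted over 45 and 50 pairs (1 of the 6 readout genes planned was not analysed here). The scripts were tested on simulated data.

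The 10 members, the 20 gene lists (from textbook knowledge) and the tests were chosen with earlier results of these data known. Genes named are the members, the readout genes and, per list, some of the 3 with the smallest p; Angptl8, Egfr and single mice were singled out after values were seen. The p values measure the spread between mice, whose number limits the precision. Alternatives were a replicate block by mouse number, quantile normalization, array medians subtracted, only the brighter of the probe sets, array weights, a robust prior with a trend, no moderation, all probe sets, averaging over the probe sets of each gene, the exact test and each mouse left out. The other probe set of Insr, Irs1 and Akt2 was added after the data were seen.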

Additional observations from a re-analysis of the deposited data

Results flagged for a closer look

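Outlying mice were sought in 72 groups of 7 values (both groups for 36 probe sets). In 8 groups the gap of a mouse to its nearest neighbour exceeded Dixon's critical share of the group's range. For normally distributed values, chance alone gives such a gap in about 1 of 20 groups. Of the 26 groups of the members, 5 were of this kind. The share over all probe sets was not computed, so whether the members hold more such gaps than other genes is unknown. Akt2 in HFM3 was 8.39, next to 8.08 in HFM2, in the probe set whose neighbours lie on chromosome 11. Akt1 in HFM7 was 6.37, below 6.55 in HFM4. Pik3r1 in HFS2 was 7.07, far below 7.64 in HFS6. Errfi1 in HFS1 was 9.23, below 9.93 in HFS6. The remaining Irs1 probe set in HFS6 was 3.76, above 3.37 in HFS2. Among other pathway genes, Grb7 in HFM5 was 6.99, below 7.81 in HFM7, Irs3 in HFS3 was 4.80, above 4.50 in HFS4, and Ptprf in HFS4 was 7.66, above 7.54 in HFS6.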

How the results depend on the processing

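Adjusted over all probe sets, 0 members passed 0.05 under each alternative run. The count of members higher at an unadjusted p under 0.05 was 1, and 0 after quantile normalization and with a robust prior with a trend, and 0 to 1 with each mouse left out. The count lower was 1, and 0 with array medians subtracted, only the brighter of the probe sets, array weights, a robust prior with a trend, all probe sets and the exact permutation test, and 0 to 2 with each mouse left out. Over all probe sets, calls at an unadjusted p under 0.05 numbered 1514, 2049 without HFM5 and 2465 without HFM7, and 55.2% of them were higher, against 76.1% of 1662 with array medians subtracted and 71.0% of 749 among the brighter probe sets. Without HFS6, 1 probe set passed an adjusted p of 0.05, and it was of no member.

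Signs turned for Insr (0.015 with probe sets averaged, 0.079 with its other probe set, -0.089 to 0.0074 with each mouse left out), Akt2 (-0.015 with its other probe set), Ptpn1 (-0.0044 with array weights, -0.0053 to 0.094 with each mouse left out), Irs2 (-0.011 to 0.15 with each mouse left out), Pik3r1 (-0.12 to 0.040), Igfbp1 (-0.049 to 0.15), Fasn (-0.15 to 0.41) and Tns1 (0.056 with probe sets averaged). The median of the adipocyte markers was 0.01, and 0.29 among the brighter probe sets, where fewer of them were tested.

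Mouse numbers did not pair the samples: deviations of same-numbered mice correlated between -0.20 and 0.14, and 0 of 7 pairs were each other's closest. With the replicate block the count of members lower was 0 and the Irs1 difference -0.16. The cause of these changes was not tested. Signal over background was not among the values used, so how far a dim probe set such as the remaining Irs1 one is compressed is unknown.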
